A study of Mus musculus with 4 samples.

Results

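Distant alternative 3' splice sites are acceptor sites that lie more than 12 nt upstream of the innermost acceptor of the same exon, so that their use adds a stretch of that length or more to the start of the exon. They were taken from the splicing events of mouse heart libraries as alternative 3' site rows with a length over 12 nt, other than the first site of a set, that had at least 10 reads in every library and at least 5 reads of each form over all libraries. This gave 714 sites in 633 sets and 590 genes, out of 7876 events that met the same read rule (777 alternative 3' sites within 12 nt, 1032 alternative 5' sites and 5353 cassette exons) and 124326 rows in all. The rule uses read depth and length and no comparison between groups.

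The hearts came from C57BL/6 mice with no transgene or further treatment named in the labels. In 2 mice the left anterior descending coronary artery had been permanently ligated, and heart tissue labelled as remote area, away from the infarct, was profiled 7 days later. The other 2 mice were uninjured, and their tissue carries the same remote area label. The sources used here give neither age nor sex. Polyadenylated RNA was sequenced as single-end reads of 50 bp, and the comparison asks how remote myocardium differs 1 week after infarction.

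An intron ends at its 3' splice site, an AG preceded by a tract of pyrimidines and, further upstream, the branch site. The branch site is bound first by SF1 and then by the U2 snRNP, the tract by U2AF2 and the AG by U2AF1, and another AG nearby can be taken instead when RNA-binding proteins favour or mask one of the sites. When the sites differ by a multiple of 3 nt within coding sequence the reading frame is kept, and otherwise the forms differ in frame downstream, which often brings a premature stop and decay of the mRNA.

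Library totals were between 35715115 and 70885393 gene counts. The summed level of 7 cardiomyocyte markers was 27870 to 31331 CPM (counts normalised to library size) in the infarcted libraries and 47563 to 58062 in the uninjured ones, with 4 of 7 called lower (edgeR's quasi-likelihood test, Benjamini-Hochberg adjusted p below 0.05). The fibroblast list summed to 3003 to 4028 CPM against 579 to 586, with 3 of 6 markers higher, and all 5 macrophage markers were higher, at 229 CPM in both infarcted libraries against 78.9 to 90.1. Of 5 smooth muscle and pericyte markers 2 were higher, 2 of 3 erythroid markers were lower, and no endothelial or lymphocyte marker was called. No marker was without counts in all libraries. In bulk tissue, fewer cells of a type and less RNA per cell cannot be told apart. Infarcted replicate 2 stood apart in atrial markers, whose sum was 2009 CPM there against 295 in infarcted replicate 1, 88.8 in uninjured replicate 1 and 49.5 in uninjured replicate 2. The labels do not mention atrial tissue. The part of these markers in any difference in splice site use was not tested.

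The stretches between each site and its main competitor, the most used other site of the set, show what the choice adds to the mRNA. They were read 5' to 3' from GENCODE M21 transcripts (GRCm38) that hold the longer form, found by gene symbol and the length of the intron, and the positions given are those of the deposited mm9 events. Such a stretch was found for 588 sites and ended in AG in 585. Capitals mark that AG, the acceptor of the inner site, which stays in the mRNA when the outer site is used.

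The following were among the sites furthest apart between groups or deepest. Ythdc1 lies at chr5:87260798-87260821 (plus strand, exon 14 of 17), Qk at chr17:10409301-10409324 (minus strand, exon 6 of 7), Ehbp1 at chr11:22046629-22046703 (minus strand, exon 10 of 25), Elf2 at chr3:51068929-51068964 (minus strand, exon 3 of 6), Ehmt2 at chr17:35043898-35043927 (plus strand, exon 5 of 10) and Pde4dip at chr3:97513507-97513557 (minus strand, exon 34 of 47). All 6 stretches are coding.
Ythdc1: ttttacaaatcttattcccaacAG
Qk: cagcccttgccttttctcttgcAG
Ehbp1: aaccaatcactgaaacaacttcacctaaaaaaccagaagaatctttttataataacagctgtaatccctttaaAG
Elf2: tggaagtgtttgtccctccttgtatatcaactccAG
Ehmt2: cccaccttctccccctccatcccctgacAG
Pde4dip: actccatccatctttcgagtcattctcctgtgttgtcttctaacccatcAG

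A second group shows coding stretches of a matrix protein, an mRNA-binding protein and splicing factors. Fn1 lies at chr1:71644247-71644321 (minus strand, exon 40 of 46), Serbp1 at chr6:67222813-67222857 (plus strand, exon 5 of 8), Sf1 at chr19:6374010-6374030 (plus strand, exon 10 of 13) and Hnrnpc at chr14:52695091-52695111 (minus strand, exon 8 of 9).
Fn1: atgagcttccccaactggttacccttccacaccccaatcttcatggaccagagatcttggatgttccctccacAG
Serbp1: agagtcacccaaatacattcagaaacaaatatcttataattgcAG
Sf1: tctctcatgtctacaactcAG
Hnrnpc: acttgtccttctcatccccAG

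All 10 stretches printed are multiples of 3 nt long, but they are a selection. Of all sites with the main competitor over 12 nt away, 299 of 626 (47.8%) differ from it by a multiple of 3. Other named stretches do not, such as those of Pank4 (34 nt) and Vegfb (101 nt). Several of the 10, such as those of Qk, Ehmt2 and Hnrnpc, are rich in c and t. The tract upstream of the inner AG is then itself part of the mRNA when the outer site is used. The share of pyrimidines was taken in the 20 bases upstream of the base next to the inner AG. Over the 392 sites where these lie within the stretch, its median was 65.0%.

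Most of the sites form simple choices. Of the 714, 384 stand in sets of 2 acceptors, 252 in sets of 3 and 78 in larger sets. The stretch from the innermost site had a median length of 48 nt and ran from 13 to 445 nt. In 87 sites the main competitor was not the innermost acceptor but one within 12 nt, as in Hgs and Ncoa3, where 2 distant sites lie 3 nt apart. For 626 sites in 548 genes the main competitor was over 12 nt away, and for 1 site it could not be resolved. There were 79 sets with 2 or more such sites, holding 160 of the 714, and the values of sites in the same set mirror each other. At the threshold itself, the 17 alternative sites of exactly 12 nt, outside the rule, had a median use of 78.8%, and the 7 of 13 nt, just inside it, 5.90%. Sites of 10 and 11 nt, also outside the rule, had 8.64% (4 sites) and 23.8% (10 sites). Those of 14 and 15 nt had 9.06% and 9.14%, so among these lengths only the sites of 12 nt were high.

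GENCODE M21 has a transcript with the site itself in 567 cases, with the competitor in 552 and with both in 425. Of the 588 stretches found, 442 were coding, 58 lay in 5' UTRs, 12 in 3' UTRs, 45 spanned coding sequence and UTR, and 31 were in transcripts without a coding sequence. In 75 cases the site or its competitor was found in a transcript annotated as a target of nonsense-mediated decay and in no protein-coding transcript.

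Use of these sites was mostly one-sided. Percent use is the share of the set's junction reads that take the site. Its mean over the 4 libraries was under 20% for 296 sites, over 80% for 274 and in between for 144. The rarer form was below 5% for 297 of 714 (41.6%), against 28.2% of sites within 12 nt, 36.6% of alternative 5' sites and 41.3% of cassette exons. It reached 20% for 144 (20.2%), against 27.8%, 23.6% and 22.2%. These shares depend on depth, since each form needed only 5 reads, and are given without a test.

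The more evenly both sites were used, the more often their distance was a multiple of 3. With the competitor over 12 nt away, this held for 105 of 271 sites (38.7%) with the rarer form under 5%, for 112 of 239 (46.9%) at 5 to 20% and for 82 of 116 (70.7%) at 20% or more. With 1 site per set counted, the values were 98 of 255, 102 of 220 and 73 of 106. The alternative 5' sites in sets of 2 gave a like order, 34.2%, 43.6% and 66.9%, and the 3' sites within 12 nt in sets of 2 had 45.3%, 79.9% and 89.0%. By distance, the share was 53.8% at 13 to 50 nt, 44.2% at 51 to 100 nt and 32.2% over 100 nt. It was 55.9% of 370 coding stretches, 44.9% of 49 in 5' UTRs and 36.4% of 11 in 3' UTRs. It was 22.2% of 45 that spanned coding sequence and UTR, and 12.9% of 31 in transcripts without a coding sequence.

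**Figure D1:**
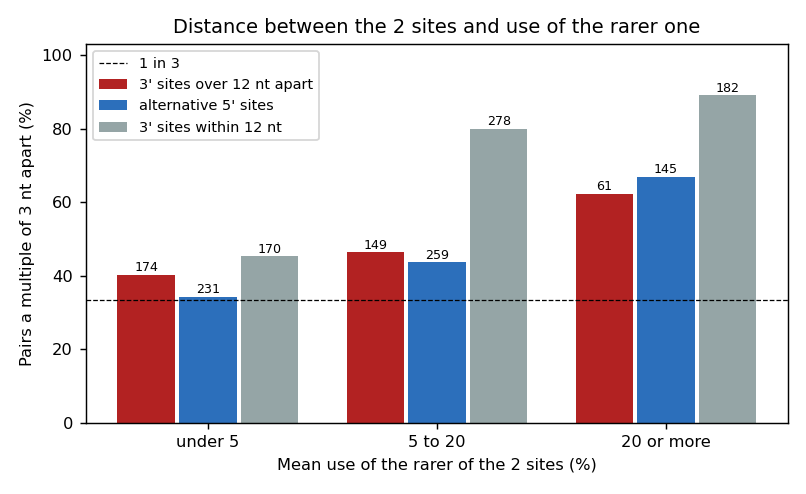
Share of site pairs that lie a multiple of 3 nt apart (vertical axis, %) by the mean use of the rarer site over 4 libraries (horizontal axis, %), for sets of 2 sites, with the number of pairs over each bar and a dashed line at 1 in 3. Among distant 3' sites the share is 40.2% of 174 pairs, 46.3% of 149 and 62.3% of 61, from the rarest to the most even use.

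No distant 3' site passed the test between infarcted and uninjured hearts. Whether the split of reads between forms depends on the group was tested with edgeR's quasi-likelihood F-test and Benjamini-Hochberg adjustment over all 7876 events. It called 0 of 714 sites (0.0% of all events were called), and the lowest p was 0.0251 unadjusted and 0.733 adjusted. With 2 mice per group and no event of any class called, the lack of calls does not show that use was unchanged. An unadjusted p below 0.05 was reached by 21 sites, or 2.94%, against 6.68% of all events. That count depended on which events shared the estimate of spread: it was 56 when only alternative splice sites were fitted and 65 when the distant 3' sites were fitted alone, and 0 sites were called in both fits. Limma on the logit and the DESeq2 likelihood-ratio test also called 0 sites, with 49 and 6 at an unadjusted p below 0.05. For these other fits the share of all events at an unadjusted p below 0.05 is not given here, so their counts lack a comparison. Limma with binomial weights, which weights sites by their reads, called 4, all higher in infarcted hearts on its scale, or 0.56% of sites against 2.36% of all events. The 4 were Hnrnpc (adjusted p = 8.26e-05), Mtap4 (0.000264), Pde4dip (0.000565) and Qk (0.0240). The 2 infarcted mice lie on either side of both uninjured mice at the Hnrnpc site, and above both at the other 3.

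The groups did not overlap at 273 sites (38.2%, against 38.6% of all events). Both infarcted mice were above both uninjured mice at 161 sites (22.5%, against 17.7% of all events) and below both at 112 (15.7%, against 20.9%). The means differed by 10 percentage points or more at 92 sites (12.9%, against 15.2% of all events). At 77 sites (10.8%, against 12% of all events) the groups did not overlap and the means lay at least 10 points apart, with infarcted higher at 49 (6.86%, against 5.31% of all events) and lower at 28 (3.92%, against 6.7%). Shallow sites made up most of these: 44 of the 77 had under 20 reads in a library, 30 had 20 to 49 and 1 had 50 to 99. As shares of the sites of that depth these were 22.4% (against 24.9% of all events as deep), 11.8% (against 13.1%) and 0.855% (against 5.87%). Only 2 of the 147 sites with at least 100 reads in every library were among them, or 1.36% against 3.28% of the 1797 events as deep; they were Mtap4 and Qk. With infarcted replicate 2, the library with atrial markers, left out, 114 sites met the same criteria, 74 higher and 40 lower, or 16.0% against 16.6% of all events. Without infarcted replicate 1 they were 61 and 58 (16.7%, against 19.3% of all events), and without uninjured replicate 2, 58 and 46 (14.6%, against 17.8%).

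**Figure D2:**
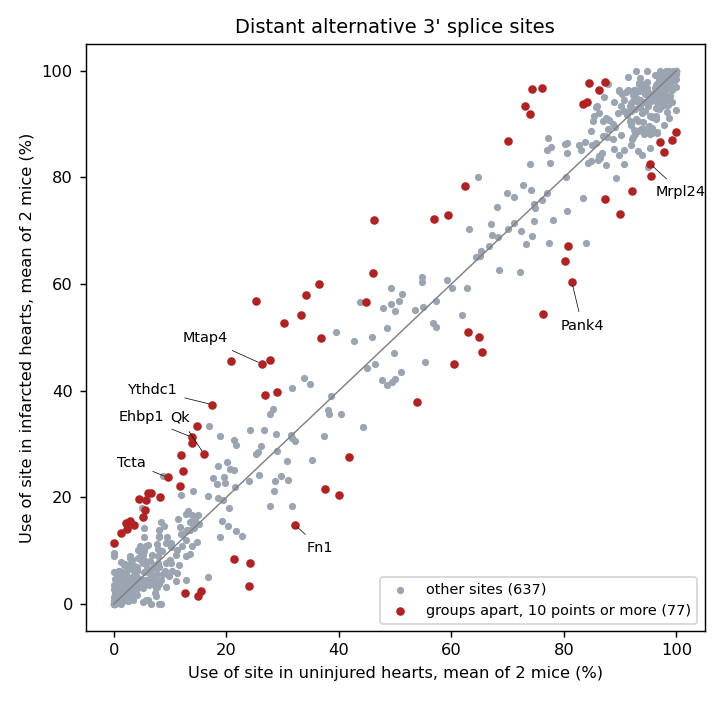
Mean percent use of each of the 714 distant 3' splice sites in 2 uninjured hearts (horizontal axis) and 2 infarcted hearts (vertical axis), with the line of equal use. The 77 red points are sites whose groups do not overlap and whose means lie 10 points or more apart, and the grey points are the others.

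The median absolute difference in use was 3.06 points between the 2 infarcted mice and 2.76 between the 2 uninjured mice, and 2.96 to 3.76 points in the 4 pairs with 1 mouse of each group. Among the 264 sites with at least 50 reads in every library it was 1.32 and 0.825 points within groups and 1.04 to 1.34 between them. Taking the form with the longer exon in each of 581 sets with a competitor over 12 nt away, that form had the higher mean in infarcted hearts in 335 sets and the lower mean in 246, with a median difference of 0.325 points. In the 63 sets with 50 reads and a rarer form of 5% or more, the split was 33 to 30.

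**Figure D3:**
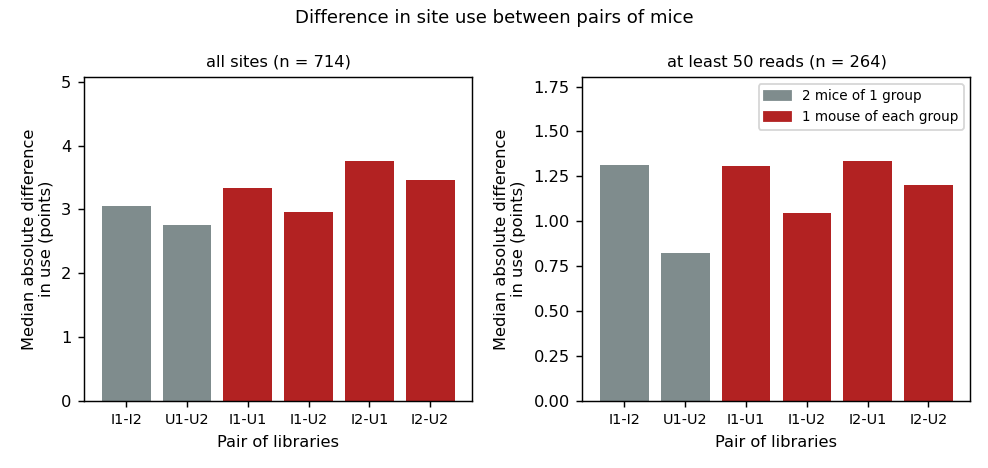
Median absolute difference in site use (vertical axis, percentage points) for the 6 pairs of libraries, where I is infarcted and U uninjured, over all 714 sites (left) and the 264 sites with at least 50 reads in every library (right). The pair of infarcted mice, at 3.06 and 1.32 points, lies within the range of the 4 pairs between groups in both panels.

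Mtap4, now named Map4, encodes a microtubule-associated protein, and its site lies 106 nt outside the other acceptor of the last exon (chr9:109984239-109984344, plus strand), in a stretch that is partly coding and partly UTR. The site took 47.6% of 189 reads and 42.5% of 120 reads in infarcted replicates 1 and 2, and 27.5% of 131 reads and 25.1% of 219 reads in uninjured replicates 1 and 2. The means were 45.1 ± 3.62% and 26.3 ± 1.66% (SD, n = 2 each), so the groups did not overlap and differed by 18.8 points. The log2 odds ratio was 1.21 ± 0.42 (SE; edgeR adjusted p = 0.733, Benjamini-Hochberg). With infarcted replicate 2 left out the difference was 21.3 points. The level of the gene was not called different, at a log2 fold change of 0.32 ± 0.21.

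Arhgef40, a guanine nucleotide exchange factor, had a site 182 nt out in the 3' UTR that took 48.3% and 43.1% in infarcted hearts and 27.3% and 28.4% in uninjured ones. Its groups were 17.9 points apart on 33 to 87 reads per library, and the gene itself was higher, by 1.12 ± 0.18 on the log2 scale (edgeR adjusted p = 0.000679). Ehbp1 links endocytic vesicles to actin. Its 75 nt stretch, printed above, was used in 29.7% and 32.9% of reads in infarcted hearts and in 14.2% and 13.7% in uninjured hearts, on 48 to 75 reads. Both infarcted mice were above both uninjured mice, with a log2 odds ratio of 1.49 ± 0.56 (edgeR adjusted p = 0.733, Benjamini-Hochberg).

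Pde4dip (myomegalin), which anchors phosphodiesterase at the Golgi, the centrosome and the sarcomere, holds 1 of the deepest sites with balanced use. The site is 54 nt out and its main competitor, which takes 53.0% of the other reads, is 51 nt away. It took 29.4% of 555 reads and 32.2% of 516 in infarcted hearts and 19.8% of 541 and 23% of 826 in uninjured hearts. Both infarcted mice were above both uninjured mice, with a difference of 9.38 points and a log2 odds ratio of 0.71 ± 0.37 (edgeR adjusted p = 0.758, Benjamini-Hochberg). One row of its set is not analysed here.

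Hgs, which sorts ubiquitinated receptors at endosomes, has sites 147 and 150 nt out that differ by 3 nt (cag). The inner of these took 82.1% and 74.8% in infarcted hearts and 58.0% and 67.0% in uninjured hearts, and the outer one the rest. The groups did not overlap, on 29 to 41 reads. Atp6v0a1, a subunit of the proton pump of vesicles, had 51.4% and 48.9% against 61.4% and 68.6%. Tnpo2, a nuclear import receptor, had 30.3% and 25% against 45.7% and 38.1%. Strn4, a striatin that holds a phosphatase complex, had 63.1% and 71.2% against 83.4% and 78.2%. At these last 3 sites the groups did not overlap either, and the edgeR adjusted p-values were 0.782 to 0.823 (Benjamini-Hochberg).

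**Figure D4:**
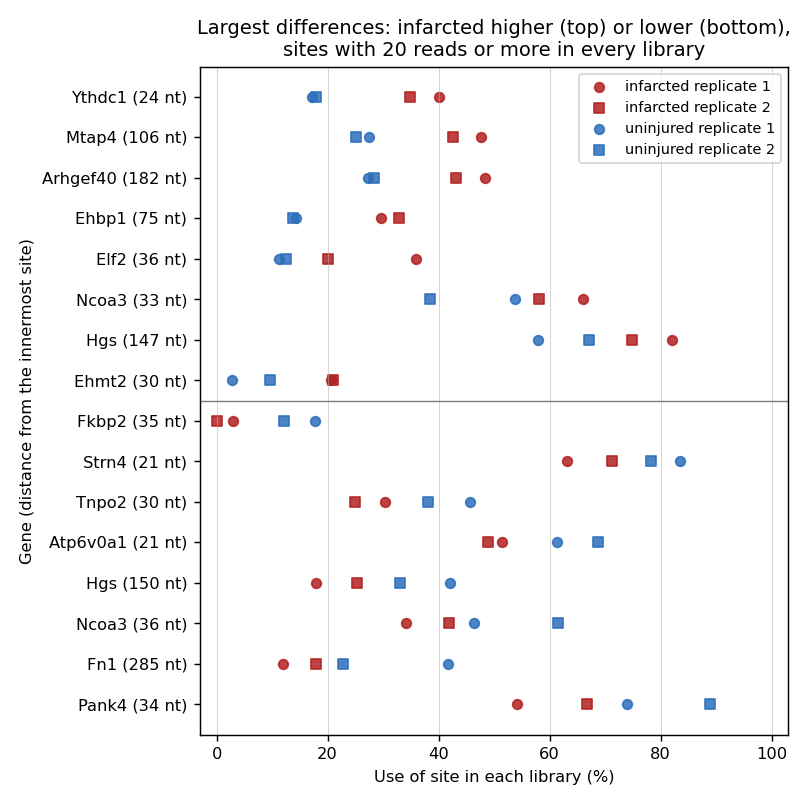
Percent use (horizontal axis) in each library of the 8 sites with the largest higher mean and the 8 with the largest lower mean in infarcted hearts, among sites with at least 20 reads in every library and groups that do not overlap (vertical axis, gene and distance from the innermost site). Red marks are infarcted and blue marks uninjured mice, circles replicate 1 and squares replicate 2; the differences run from 19.9 points in Ythdc1 to -21.0 points in Pank4.

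The sites with the largest higher values also included the following. Ythdc1, the nuclear reader of N6-methyladenosine, took its outer site, 24 nt out, in 40.0% and 34.8% of reads in infarcted hearts against 17.1% and 17.9% in uninjured hearts. These rest on 23 to 35 reads, and the Wilson 95% interval of the highest value, 24.6 to 57.7%, overlaps that of the lowest, 8.10 to 32.7%. Elf2, an ETS transcription factor, had 36.0% and 19.98% against 11.3% and 12.4% at its site 36 nt out, so both infarcted mice were higher but lay 16.0 points apart, and the difference of 16.1 points was 8.09 without infarcted replicate 1. Ehmt2 (G9a), a histone H3 lysine 9 methyltransferase, had 20.6% and 20.9% against 2.70% and 9.68%, on 32 to 49 reads. After rounding, 1 read of 35 gives the 2.70%. The Wilson 95% interval of the 9.68%, 4.44 to 21.8%, covers both infarcted values. Chd4, the remodelling ATPase of the NuRD complex, had 56.4% and 43.1% against 42.3% and 31.2%, so that 1 mouse of each group lay within 1 point of the other, and the difference of 13.02 points ran from 6.36 without infarcted replicate 1 and 7.48 without uninjured replicate 2 to 19.7 without infarcted replicate 2. The coactivator Ncoa3 had 66.0% and 58.2% against 53.7% and 38.5% at the inner of 2 sites that are 3 nt apart, and its difference of 16.0 points was 8.38 without uninjured replicate 2. In all 5 the stretch between the sites is coding and a multiple of 3 nt long, and their edgeR adjusted p-values were 0.740 to 0.858 (Benjamini-Hochberg). The stretches of Mtap4 (106 nt) and Arhgef40 (182 nt), also among the largest higher values, are not multiples of 3.

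Of 61 listed genes that recognise or proofread the 3' splice site or regulate splicing more broadly, 10 host 11 of the sites. Of these sites 3 were higher and 1 lower in both infarcted mice (17.7% and 20.9% of all events were). Their median difference was -0.17 points. Qk (quaking) regulates splicing, export and stability of mRNAs in muscle and glia. Its site 24 nt out took 28.4% of 236 reads and 27.9% of 204 in infarcted hearts and 17.7% of 243 and 14.4% of 132 in uninjured hearts. The 2 infarcted mice were within 0.45 points of each other and 12.1 points above the uninjured mean, with a log2 odds ratio of 1.02 ± 0.42 (edgeR adjusted p = 0.739, Benjamini-Hochberg). The difference was 12.3 points without infarcted replicate 2. The level of Qk was not called different.

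Sf1, the branch site binding protein, uses a site 21 nt out as its major form. It took 93.4% and 91.1% in infarcted hearts and 99.0% and 97.8% in uninjured hearts, on 90 to 152 reads. Both infarcted mice were lower, by a log2 odds ratio of -2.15 ± 0.76 (edgeR adjusted p = 0.733, Benjamini-Hochberg). Nemf, a factor that marks stalled nascent chains on ribosomes, used its outer site in 88.0% and 88.9% of reads in infarcted hearts and in 100% in both uninjured hearts. Its reads numbered 18 to 26 per library, so 2 or 3 reads make up that difference.

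Hnrnpc, which binds uridine tracts and competes with U2AF2 for them, differed more between the 2 infarcted mice than any other site with 100 reads in every library. Its site 24 nt out took 0 of 143 reads in infarcted replicate 1, which allows a share of up to 2.10%, and 47.5% of 106 reads in infarcted replicate 2. The uninjured libraries had 14.9% of 178 and 20.4% of 244 reads. The mean difference of 6.08 points turned to -17.6 points without infarcted replicate 2. Reads from near-identical copies of this gene could have been assigned to it, which was not tested, so its values are uncertain.

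Other splicing genes held sites at 1 extreme. Sf3b1, a subunit of the U2 snRNP, used its outer site, 202 nt out, in 98.3% and 100% against 98.9% and 98.6% of 92 to 140 reads. Ddx39b, an RNA helicase of splicing and export, used the site 258 nt out at 99.1% and 97.7% in infarcted hearts and 100% in both uninjured hearts, with 1 to 5 reads from a site 134 nt further in. Another Ddx39b site, 19 nt out at another exon, took 95.9 to 99.0% in all 4 libraries.

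Matrix and adhesion genes were few among the hosts. Of 78 matrix and adhesion genes 5 host a site each, of which 2 were lower and 0 higher in both infarcted mice, where 20.9% and 17.7% of all events were. Fn1 encodes fibronectin, whose variable region is joined through a choice of acceptors that keep, shorten or omit it and with it integrin-binding sequence. The site 285 nt out took 11.9% of 614 reads and 17.8% of 275 in infarcted hearts, and 41.7% of 24 and 22.7% of 22 in uninjured hearts. The groups did not overlap, but the uninjured values rest on 10 and 5 reads, with Wilson 95% intervals of 24.5 to 61.2% and 10.1 to 43.4%. The main competitor lies 75 nt further out, and since its row is not analysed here its share was taken as the remainder of the set, 95.3% of the other reads. The difference of -17.3 points was -7.88 without uninjured replicate 1, -26.8 without uninjured replicate 2 and -11.4 with reads thinned to the shallowest library. The log2 odds ratio was -1.52 ± 0.68 (edgeR adjusted p = 0.747, Benjamini-Hochberg). Fn1 expression was higher by 4.79 ± 0.36 on the log2 scale (edgeR adjusted p = 1.48e-05), from 34.2 and 27.1 CPM in uninjured to 1130 and 568 CPM in infarcted hearts. Summed fibroblast markers were also higher in both infarcted libraries, and their part in this difference was not tested.

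Smoc2, a calcium-binding matricellular protein, had a minor site 33 nt out at 0.89% and 0.0% in infarcted hearts and 4.25% and 6.24% in uninjured hearts, on 79 to 106 reads, and its level was not called different (log2 fold change -0.09 ± 0.19). Ltbp4, which holds latent TGF-beta in elastic fibres, had its site 18 nt out at 1.05% and 1.11% against 1.29% and 1.39%. Bgn, the proteoglycan biglycan, used a site 39 nt out in 0.53% of reads or fewer in every library, while its level was higher by 2.97 ± 0.25 on the log2 scale (edgeR adjusted p = 5.14e-06). Tnxb, a tenascin, had 62.1% and 41.5% against 60.7% and 36.4% at a site 15 nt out, on 14 to 31 reads, so mice of the same group differed by over 20 points, and the mean difference of 3.25 points was 14.3 when thinned and ran from -8.9 to 15.4 with 1 library left out.

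A sarcomere gene, Tnni3, held the deepest site. Of 53 sarcomere genes 6 host 9 sites, with a median difference of 0.015 points. Myh6, the alpha myosin heavy chain of adult mouse ventricle, has a site 64 nt out in its 5' UTR (chr14:55584673-55584736, minus strand) that took 78.9% of 1131 reads in infarcted replicate 1 and 61.0% of 1037 in infarcted replicate 2. The uninjured libraries had 74.5% of 1003 and 70.2% of 1101 reads. The infarcted mice thus lay on either side of both uninjured mice, and the difference of -2.33 points became 6.64 points without infarcted replicate 2, the library with atrial markers, whose part here was not tested. Myh7 is a close paralog of Myh6, so reads near the start of the gene are uncertain, and their assignment was not tested. Pdlim5, a PDZ and LIM protein of the Z-disc, had a site 327 nt out at 1.87% and 0.85% against 0.38% and 0.42%, higher in both infarcted mice on 721 to 1285 reads, by 0.96 points (0.45 without infarcted replicate 1 and 1.47 without infarcted replicate 2), and its level was higher by 1.0 ± 0.24 (edgeR adjusted p = 0.00619). Tnni3, the inhibitory cardiac troponin, used a site 59 nt out in 0.03% of 9399 reads or fewer in every library.

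Among 47 calcium handling and channel genes 2 host a site each. Kcnh2, the potassium channel of rapid repolarization, had a site 118 nt out, in a transcript with no coding sequence. It took 3.92% of 51 reads and 8.33% of 48 in infarcted hearts, and 0.0% of 60 and 1.79% of 112 in uninjured hearts. The difference was 5.23 points (3.02 without infarcted replicate 2), but it rests on 0 to 4 reads of the site per library. The Wilson intervals of the 3.92% (1.08 to 13.2%) and the 1.79% (0.49 to 6.28%) overlap. The level of Kcnh2 was lower by a log2 fold change of -0.77 ± 0.19 (edgeR adjusted p = 0.00712). Ryr2, the calcium release channel, used a site 104 nt out in 0.0 to 0.53% of 579 to 801 reads. Of 134 mitochondrial and metabolic genes 16 host 19 sites, of which 4 were higher and 4 lower in both infarcted mice, a share near that of all events (17.7% and 20.9%), and in 12 of the 19 the rarer form was below 5%. Cox4i1, a cytochrome c oxidase subunit, spliced to its site 14 nt out in 99.93 to 99.96% of reads, and its other 2 sites took 0.17% or less. Atp5g3, a subunit of the ATP synthase ring, used its site in 0.18 to 0.40%. Mrpl24, a mitochondrial ribosomal protein, used the outermost of 3 sites in 81.0% and 84.0% of reads against 94.2% and 96.5%, with the competitor 4 nt away, and its level was lower by a log2 fold change of -0.71 ± 0.20 (edgeR adjusted p = 0.0159).

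Pank4, of the pantothenate kinase family, had the largest lower value at sites with 20 reads. Its site 34 nt out, a frame change in the coding sequence, took 54.2% and 66.7% in infarcted hearts and 73.9% and 88.9% in uninjured hearts, on 21 to 45 reads, and the difference of -21.0 points was -13.5 without uninjured replicate 2. Fkbp2, a prolyl isomerase of the endoplasmic reticulum, used a site 35 nt out at 3.03% and 0.0% against 17.6% and 12.2%, on 33 to 41 reads. Tcta had 25.3% and 22.2% against 7.21% and 12.02% at its site 48 nt out, a difference of 14.1 points that was 2.27 with reads thinned to the shallowest library, and its level was lower by a log2 fold change of -0.96 ± 0.20 (edgeR adjusted p = 0.00327). In each of the 3 genes the groups did not overlap.

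The deepest sites with balanced use differed by under 10 points. Vegfb, an endothelial growth factor made in cardiomyocytes, has a site 101 nt out whose use decides between its heparin-binding and its soluble isoform. It took 41.2% of 430 reads and 36.7% of 308 in infarcted hearts and 38.4% of 627 and 38.9% of 1263 in uninjured hearts, a difference of 0.265 points, although the level of Vegfb was lower by a log2 fold change of -1.03 ± 0.24 (edgeR adjusted p = 0.00509). Eno3, muscle enolase, used a 5' UTR site 112 nt out in 36.2% and 34.9% against 39.1% and 37.3%, a difference of -2.61 points (-1.71 without uninjured replicate 1 and -1.25 when thinned), and its level was lower by -1.13 ± 0.25 on the same scale (edgeR adjusted p = 0.00415). Serbp1, an mRNA-binding protein, had 44.0% and 38.3% against 50.9% and 46.1% at its site 45 nt out, lower in both infarcted mice by a mean of -7.39 points, or -4.55 without infarcted replicate 2. Anapc5, of the anaphase-promoting complex, had 58.6% and 52.4% against 46.3% and 49.4% at its site 57 nt out, higher by 7.62 points, or 4.48 without infarcted replicate 1. Cd34, a sialomucin of endothelial and progenitor cells, had 31.9% of 417 reads in infarcted replicate 1 but 19.9% of 346 in infarcted replicate 2, near the 18.02% and 18.96% of the uninjured hearts, at a site 156 nt out. The Cd34 difference of 7.42 points was 1.45 without infarcted replicate 1 and 13.4 without infarcted replicate 2.

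Genes that carry these sites were more often lower than higher in infarcted hearts. Of 590 host genes 579 were tested, and 50 were higher (8.64%, against 18.3% of all 13905 genes) and 146 lower (25.2%, against 14.6%), with a median log2 fold change of -0.14 against 0.017 (edgeR's quasi-likelihood test, Benjamini-Hochberg adjusted p below 0.05). The read rule selects genes with enough junction reads in every library, so a gene with few such reads in either group is left out. The host genes were set against all genes tested, not against genes of like depth or hosts of other events. The part of the rule in this difference was not tested. The numbers called changed widely with 1 library left out, and are given below. Without uninjured replicate 2, lower host genes no longer outnumbered higher ones. The shares of all genes in these fits are not given here, so a general loss of calls cannot be told apart from a change in the host genes. Of the 65 tested host genes of sites 10 points or more apart without overlap, 8 were higher and 11 lower. 

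**Figure D5:**
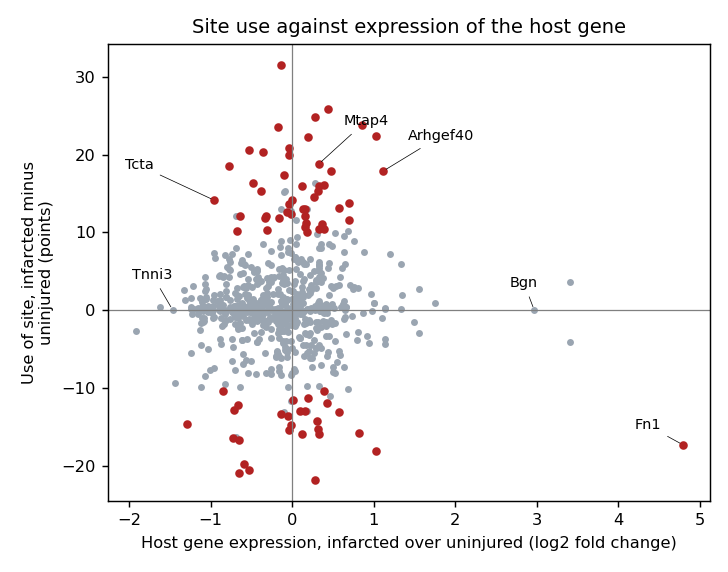
Difference in percent use of each site (vertical axis, infarcted minus uninjured, points) against the log2 fold change of its host gene (horizontal axis), with the sites 10 points or more apart without overlap in red. Differences of 10 points or more lie on both sides of 0 on the horizontal axis, and Fn1, at 4.79, is furthest to the right.

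The same 61 listed genes hold 3' splice site factors and broader splicing regulators such as Mbnl1 and Celf1. Of them 2 were higher (3.28%, against 18.3% of all genes) and 3 lower (4.92%, against 14.6%). The median log2 fold change of the list was 0.077, against 0.017 for all genes. Rbfox1, a muscle and neuron splicing regulator, was at 16.6 and 11.8 CPM in infarcted hearts and at 47.5 and 34.1 in uninjured hearts, a log2 fold change of -1.52 ± 0.23 (edgeR adjusted p = 0.000497). Ptbp1, which binds pyrimidine tracts and represses nearby sites, was at 89.2 and 71.3 CPM against 36.9 and 33.3, a log2 fold change of 1.19 ± 0.19 (edgeR adjusted p = 0.000642). Tra2b, an activator that binds exons, was higher by 0.61 ± 0.18, and U2af1l4, a paralog of U2AF1, and Phf5a, a subunit of the U2 snRNP, were both lower, with log2 fold changes of -0.64 ± 0.22 (edgeR adjusted p = 0.0215, 0.0386 and 0.0421). Srsf11 was next, at 0.41 ± 0.19, and was not called (edgeR adjusted p = 0.120). U2af1 and U2af2, which contact the site itself, were not called, at -0.23 ± 0.21 and 0.08 ± 0.18. The numbers of these factors that edgeR called varied with the library left out. They are given below, without the share of all genes in the same fits. Fibroblast and macrophage markers were higher in the same libraries, and their part in these levels was not tested.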

How the data were processed

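Per the labels, polyadenylated RNA from the hearts of 2 infarcted and 2 uninjured mice was sequenced. The authors deposited raw counts per Ensembl gene and, per event, the percent use of the form with the corrected reads for and against it. The genome build is mm9, per the submitters' processing notes; the aligner and event caller were not given in the sources used here. Groups were taken from the sample titles. With 1 library each, p-values measure the spread between these samples.

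Corrected reads were rounded and tested in edgeR 4.0.16 (R 4.3.3) over 7876 events, with a term for each library and an interaction of form and group. The SE is the log2 odds ratio divided by the square root of F. Genes (21552, of which 20450 had a symbol and 13905 passed filterByExpr) were tested with TMM. Alternatives used limma 3.58.1 (0.5 reads added to each form) and DESeq2 1.42.0. The scripts were tested on simulated data. Wilson 95% intervals and the 3-read floor cover counting error only. Strandedness is not given, so antisense overlaps cannot be separated.

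The sites, lists and rules were chosen with earlier results of these data known. Named were sites called, the 10 largest differences either way with 20 reads and no overlap, the 6 smallest p, the 6 deepest at 20 to 80% use, up to 4 per gene list and the 3 with 100 reads and most different mice; also up to 6 splice factors. One site that the rule names is not reported here. The first site of a set was left out. An RNA-processing list of 81 genes had 11 host genes with 14 sites, 4 higher and 1 lower without overlap (17.7% and 20.9% of all events). Same-numbered mice did not deviate together (correlation -0.022 over 79 sites).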

Additional observations from a re-analysis of the deposited data

How the results depend on the processing

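Of 684 values of single named sites under other settings, 660 kept their direction and their side of the threshold and 20 reversed. The other 4 passed the threshold, these being the 4 sites that limma with binomial weights called higher, where edgeR called 0. The difference in points could change only with thinning or with a library left out. Under the other settings it is the same by construction, so the 660 do not measure how stable the directions are. With the replicate number as a block, edgeR called 0 sites in either direction, 60 host genes higher and 162 lower, and 2 and 3 splice factors; the block moved no count of calls by over 1.5 times, and same-numbered samples share only a number. Leaving out 1 library at a time, edgeR called 0 sites, with 3 to 24 at an unadjusted p below 0.05, 3 to 43 host genes were called higher and 1 to 159 lower, and 0 to 4 splice factors higher and 0 to 4 lower. Those counts of sites and genes lack the share of all events or all genes in the same fits. A general loss of calls therefore cannot be told apart from a change in these genes. The sites without overlap and 10 points apart were 58 to 74 higher and 35 to 58 lower, looser because a single library then stands for a group. A minimum of 20 reads in every library gave 20 and 13 (6.37%, against 8.37% of all events). For this count, leaving out libraries and the minimum of 20 reads were added after seeing the data.

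Thinned to the shallowest library, Sf3b1 86 nt out reversed to 0.543 points and Cox4i1 418 nt out to -0.026; the cause was not tested. With 1 library left out, values ranged from -11.3 to 6.64 points for Myh6 64 nt out, -1.97 to 2.5 for Vegfb, -17.6 to 29.8 for Hnrnpc, -0.41 to 1.26 for Sf3b1 202 nt out and -1.26 to 0.41 for 86 nt out, -8.9 to 15.4 for Tnxb and -0.605 to 2.52 for Ddx39b 19 nt out. Sites under 1% or over 99% ranged from -0.06 to 0.08 for Myh6 23 nt out, -0.385 to 0.115 for Ryr2, -0.01 to 0.02, -0.1 to 0.07 and -0.055 to 0.065 for Cox4i1 14, 272 and 418 nt out, and -0.28 to 0.25 for Bgn. The read rule applied after rounding, also added after seeing the data, gave 739 sites and 0 calls, with 22 at an unadjusted p below 0.05. The share of all events in that fit is not given here. Depth limits the values: the median site had 34 reads in its shallowest library, and 196 sites had under 20.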
